A study of Mus musculus and Meriones unguiculatus with 4 samples.

Results

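The genes described here make cholesterol and fatty acids, together with the factors that switch these pathways on. The set was given as 30 mouse gene symbols, and a gene entered the comparison of species when its symbol occurred once in the mouse table and once in the gerbil table, ignoring case. That left 18 of the 30 genes, out of 13324 genes matched by symbol and 10161 matched genes kept after a minimum on their level. Of the other members, 8 had a symbol in the mouse table alone, 3 had one in the gerbil table alone, and Lss had 2 mouse rows. All 18 passed the minimum, with levels between 10.6 and 376.6 in single libraries.

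RNA was measured by sequencing in the enamel knot region of lower jaw tooth germs from wild-type mouse (Mus musculus) embryos at embryonic day 13 and wild-type Mongolian gerbil (Meriones unguiculatus) embryos at embryonic day 15. The enamel knot is a compact epithelial signalling centre that sets where a tooth cusp forms. Germs were fixed in paraformaldehyde and sectioned frozen, a laser microdissector isolated the knot region, and libraries were made with a SMARTer kit from TRIzol RNA. Each species gave 2 libraries, called PEK and SEK in mouse and E21 and E23 in gerbil after their column names. The labels explain none of these endings, E21 and E23 do not match the labelled embryonic day, and how many animals were pooled is not given. The spread between the libraries of a species may therefore be technical, or may hold a difference of stage or region.

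Cholesterol is built from acetyl-CoA through mevalonate to squalene, which is closed into lanosterol and trimmed step by step to cholesterol. Fatty acids are built from the same acetyl-CoA by acetyl-CoA carboxylase and fatty acid synthase, then lengthened by elongases and given double bonds by desaturases. When membrane sterol is low, the escort protein Scap carries the sterol regulatory element binding proteins, encoded by Srebf1 and Srebf2, to the Golgi, where they are cut to release transcription factors; Insig1 holds Scap back when sterol is plentiful. Shh, a signal that the enamel knot secretes, itself carries a cholesterol group.

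These transcription factors are known to bind a sterol regulatory element, usually beside sites for NF-Y and Sp1. Mouse promoter windows from 250 bases before to 50 bases after a start site were available for 24 of the 30 genes (30 windows in all, RefSeq, build GRCm38.p6). Those of 4 genes are printed as examples. Hmgcs1 was the sole member whose window held the sterol element core searched. Nsdhl and Srebf1 were called different between species, and Msmo1 acts just before Nsdhl. Capitals mark TCACNCCAC (sterol element core), CCAAT (NF-Y) and GGGCGG (Sp1), searched on both strands, and each run is on the strand of the gene, at chr13:119690101-119690400 (plus strand), chrX:72918271-72918570 (plus), chr8:64733529-64733828 (minus) and chr11:60222532-60222831 (minus, the outermost of 3 Srebf1 starts).
Hmgcs1: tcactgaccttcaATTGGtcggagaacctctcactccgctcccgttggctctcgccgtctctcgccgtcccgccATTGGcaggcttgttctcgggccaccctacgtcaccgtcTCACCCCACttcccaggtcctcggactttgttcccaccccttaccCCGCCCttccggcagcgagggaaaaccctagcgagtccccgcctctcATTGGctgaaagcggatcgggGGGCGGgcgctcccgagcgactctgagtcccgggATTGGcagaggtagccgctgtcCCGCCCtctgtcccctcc
Nsdhl: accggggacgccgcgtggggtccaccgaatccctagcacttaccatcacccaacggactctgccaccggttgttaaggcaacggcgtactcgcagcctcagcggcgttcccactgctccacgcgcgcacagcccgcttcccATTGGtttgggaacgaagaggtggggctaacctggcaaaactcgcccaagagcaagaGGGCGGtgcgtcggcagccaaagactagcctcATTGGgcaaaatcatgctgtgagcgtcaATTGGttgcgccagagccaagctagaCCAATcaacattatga
Msmo1: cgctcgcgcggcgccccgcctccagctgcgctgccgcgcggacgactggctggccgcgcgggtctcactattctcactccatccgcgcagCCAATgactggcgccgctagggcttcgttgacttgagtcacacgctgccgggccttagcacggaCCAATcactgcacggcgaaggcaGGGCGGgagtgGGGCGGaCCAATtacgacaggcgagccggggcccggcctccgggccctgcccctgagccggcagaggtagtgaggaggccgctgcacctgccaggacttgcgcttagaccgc
Srebf1: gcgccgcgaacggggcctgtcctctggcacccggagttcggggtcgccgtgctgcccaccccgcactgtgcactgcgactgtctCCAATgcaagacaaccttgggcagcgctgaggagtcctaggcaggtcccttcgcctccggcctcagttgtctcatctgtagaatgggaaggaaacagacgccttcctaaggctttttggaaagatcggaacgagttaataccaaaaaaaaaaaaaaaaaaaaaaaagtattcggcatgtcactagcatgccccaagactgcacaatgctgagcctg

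The sterol element core was found in 1 of the 30 member windows (3.33%), beside 1.24% of all 32851 mouse windows. In Hmgcs1 it began at base -137 from the start site, read TCACCCCAC, and had 4 CCAAT matches and 3 GGGCGG matches around it. The CCAAT box was in 20 of the 30 member windows (66.7%) and in 37.4% of all windows. The Nsdhl window held 4 CCAAT matches and 1 GGGCGG match, and the Msmo1 window 3 and 2. GGGCGG was in 23 of the 30 (76.7%), beside 35.7% of all windows and 62.8% of the 10341 windows of genes kept in the comparison. The outermost Srebf1 window held 1 CCAAT match and no other, while the other Srebf1 windows held 2 and 3 GGGCGG matches and the first of these also 1 CCAAT match. Only 1 form of the sterol element core was searched, so a window without a match may still hold another form. A match is a description of letters in mouse, and no gerbil promoter was analysed here.

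Levels are the deposited FPKM (mouse) or TPM (gerbil) scaled so that the matched genes of a library add up to 1000000. Differences between species are given on the scale of log2(level + 1), gerbil minus mouse, after removing from each library its trend along transcript length. Lengths are those of mouse transcripts and were used for both species. Before that step the median difference over all genes ran from -1.80 in the shortest 10% of genes to 1.43 in the longest 10%, so an uncorrected difference of a long gene carries a shift toward gerbil. A gene was called when both libraries of a species lay at least 2-fold above both of the other. No significance test was made, because the tables were normalized separately and the smallest exact two-sided p for 2 against 2 libraries is 0.333. Levels are not length corrected, and on their scale the median gene was 0.62 higher in gerbil on the log2 scale (1.54-fold). In such bulk samples, fewer cells of a type and less RNA per cell cannot be told apart.

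Sequencing depth is unknown for mouse and was not used here for gerbil, so no counting interval is given. Dental epithelium markers were abundant in every library, with summed levels of 5315 to 7290 in mouse and 7505 to 8777 in gerbil (6 of 6 genes). Knot markers (7 of 7 genes) summed to 2375 to 3680 in mouse and 1262 to 1353 in gerbil, and mesenchyme markers (7 of 7) to 802 to 860 and 979 to 1690. The lower gerbil sum was not shared by every knot marker. Shh was at 946 and 609 in PEK and SEK and at 963 and 1186 in E21 and E23. Cdkn1a was at 1565 and 1019 in mouse and at 60.0 and 37.1 in gerbil. Wnt10a was at 744 and 618 in mouse and at 71.6 and 58.0 in gerbil. Skeletal muscle markers (5 of 5) summed to 110 in PEK, 349 in SEK, 3.92 in E21 and 13.3 in E23, and endothelial markers (4 of 5) to 5.31, 13.2, 1.13 and 103. Glia and nerve markers (4 of 5) were at 4.59 and 4.64 in mouse and 39.1 and 35.9 in gerbil. Of the fat cell markers, all 5 were listed at 0 in both gerbil libraries, and their mouse sums of 4.45 and 21.4 were mostly Fabp4, at 2.56 and 20.8. The part of these other cells in the differences below was not tested.

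Among the 18 genes, 1 was called higher in gerbil (Nsdhl), where 13.3% of all kept genes were, and 1 higher in mouse (Srebf1), where 14.7% were. The other 16 were called in neither direction. The median difference of the 18 genes was -0.32, beside -0.02 over all kept genes, with 8 genes above and 10 below zero. Their median absolute difference was 0.55, beside 0.89 over all kept genes, and 3 of 18 differed by 1 or more on the log2 scale, where 45.2% of all genes did. The kept genes also include genes at lower levels than these 18. Without any gap required, 8 genes had both gerbil libraries above both mouse libraries (36.9% of all kept genes), 9 the reverse (37.3%), and Pmvk overlapped. With libraries centred on their median and no length correction, Nsdhl, Hsd17b7 and Acaca were called higher in gerbil (18.4% of all kept genes) and none higher in mouse (19.4%), and the median was 0.12. With length correction and a level of at least 10 in each species, Nsdhl and Srebf1 were again the called genes. The shares of all genes called were then 10% higher in gerbil and 11.3% higher in mouse.

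**Figure D1:**
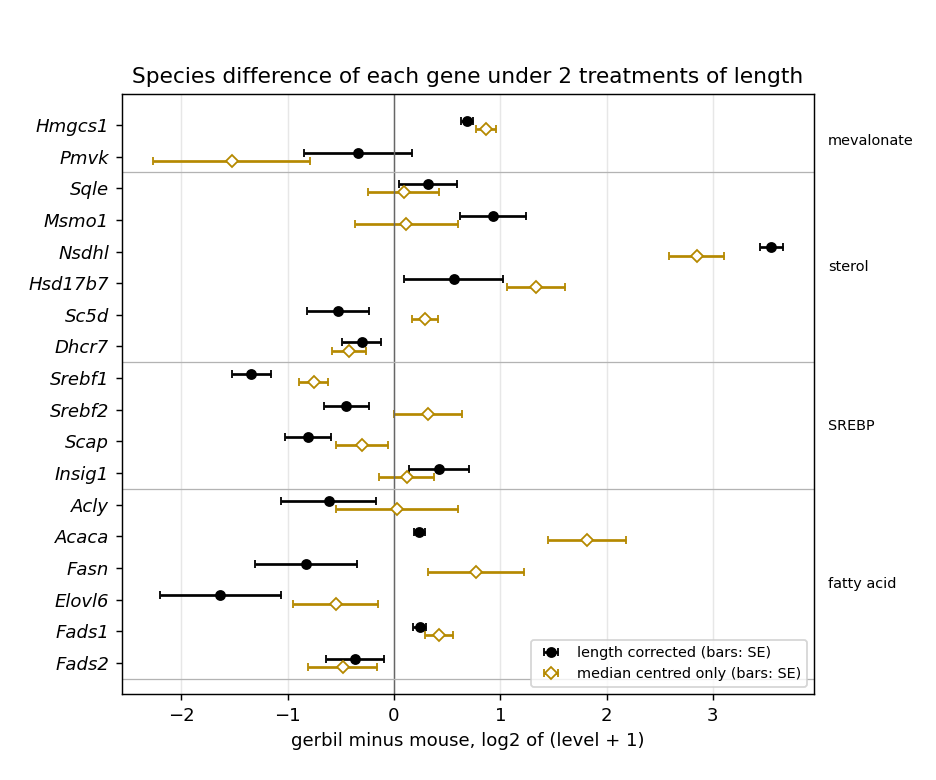
Gerbil minus mouse difference of the 18 genes on the log2(level + 1) scale (x axis), ordered by role; filled circles are length corrected, open diamonds centred on the median only, and bars are 1 SE from 2 libraries per species. Nsdhl stands at 3.55 and 2.85 under the 2 treatments, whereas Acaca is at 0.24 length corrected and at 1.82 when only centred.

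**Figure D2:**
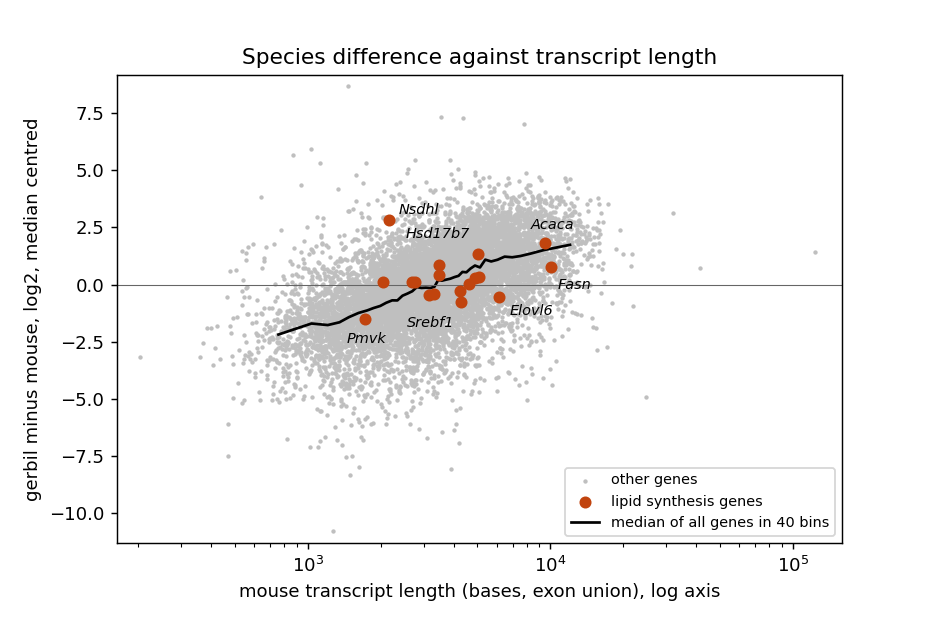
Gerbil minus mouse difference, centred on the median and not length corrected (y axis, log2), against mouse transcript length in bases (log x axis) for all kept genes (grey), with the 18 lipid synthesis genes in orange and the median of all genes in 40 length bins as a line. Nsdhl, at 2168 bases, lies above the line, and the long genes Acaca and Fasn, at 9513 and 10050 bases, lie near or below it.

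The early steps, from acetyl-CoA to farnesyl diphosphate, could be compared for 2 of 7 genes. Hmgcs1, the cytosolic synthase that makes HMG-CoA, was at a level of 96.6 in PEK and 81.0 in SEK, and at 270.4 in E21 and 235.5 in E23. Both gerbil libraries were above both mouse libraries, at means of 253 ± 24.7 against 88.8 ± 11.1 (SD, n = 2 each), and the length-corrected difference was 0.68 ± 0.05 (SE), under the 2-fold gap. Pmvk, which adds the second phosphate to mevalonate, was at 50.04 and 122 in PEK and SEK and at 38.8 and 44.8 in E21 and E23. Its mouse libraries lay further apart than the species, and its difference was -0.34 ± 0.51 (SE). It was -1.53 ± 0.74 with centring alone and 0.18 with GC content also removed, and it was called in neither.

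The remaining mevalonate genes were read in a single species. In mouse, Acat2, which joins 2 acetyl-CoA units, was at levels of 105 and 177 in PEK and SEK, the kinase Mvk at 58.4 and 94.5, and the isomerase Idi1 at 36.3 and 50.6. All 3 were higher in SEK than in PEK. In gerbil, the farnesyl diphosphate synthase Fdps was at 248 in E21 and 206 in E23, and the decarboxylase Mvd at 59.6 and 43.9. Gerbil rows that carry a description but no symbol lie outside the matching rule and are given as levels alone. A row described as acetyl-CoA acetyltransferase was at 214 and 170, one described as mevalonate kinase at 40.2 and 38.5, and one described as the isopentenyl isomerase at 78.7 and 94.4. The kinase and the isomerase each had another row of the same description, at 0 in both gerbil libraries.

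The steps from squalene to cholesterol gave the largest difference among the 18 genes, at 1 enzyme. Nsdhl is the sterol dehydrogenase and decarboxylase that, with Msmo1 and Hsd17b7, removes a pair of methyl groups from the sterol ring after Cyp51 has removed another; in mouse it lies on the X chromosome (chrX:72918557-72958514, build GRCm38). Its level was 28.6 in PEK and 35.96 in SEK, and 377 in E21 and 361 in E23. Both gerbil libraries were above both mouse libraries. Among the kept genes of a library Nsdhl ranked at percentile 50.6 in PEK and 61.5 in SEK, and at 96.7 in E21 and 96.5 in E23. The means were 32.3 ± 5.17 and 369 ± 11.2 (SD, n = 2 each), and the length-corrected difference was 3.55 ± 0.11 (SE), 11.7-fold higher in gerbil. The call was kept under each of the 11 alternatives run on single genes, with a difference between 1.57 and 3.66.

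Its partners in the same reaction series did not differ by that much. Msmo1, the oxidase that acts before Nsdhl, was at levels of 60.0 and 98.9 in PEK and SEK and at 116 and 146 in E21 and E23. The gerbil libraries were higher without overlap, and the difference was 0.93 ± 0.31 (SE), not called, and 0.12 with centring alone. Hsd17b7, the reductase that acts after Nsdhl, was at 10.6 and 13.8 in mouse and at 50.1 and 50.8 in gerbil, a difference of 0.56 ± 0.46 after length correction and of 1.34 with centring alone, when it was called. Within a library, where scaling cancels, the ratio of Nsdhl to Msmo1 levels was 0.477 in PEK and 0.364 in SEK and 3.24 in E21 and 2.47 in E23. The 2 mouse transcripts are of like length, 2168 and 2044 bases. Gerbil transcript lengths were not available here, and an effect of them would not cancel in these ratios or in the species difference of Nsdhl. The ratio to Sqle, of 2758 bases in mouse, was 0.419 and 0.381 in mouse and 2.69 and 2.84 in gerbil. These ratios, and those of other pairs of genes given below, were chosen after the values were seen.

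Sqle, the squalene epoxidase, was at levels of 68.3 and 94.4 in PEK and SEK and at 140 and 127 in E21 and E23, a difference of 0.32 ± 0.27 (SE), or 0.09 with centring alone. Sc5d, a sterol desaturase near the end of the pathway, was at 28.3 and 27.8 in mouse and at 51.2 and 57.0 in gerbil; its difference was -0.53 ± 0.29 after length correction and 0.29 without it, so its direction turned with that step. Dhcr7, the reductase that makes cholesterol from its dehydro precursor, was at 34.8, 38.2, 43.0 and 41.9 in PEK, SEK, E21 and E23. Its difference was -0.30 ± 0.18, with a spread in level of 2.40 in mouse and 0.812 in gerbil (SD, n = 2 each). None of these 3 was called. The ratio of Hsd17b7 to Sc5d levels was 0.375 in PEK and 0.497 in SEK and 0.978 in E21 and 0.891 in E23.

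Squalene and sterol genes without a comparison were also detected. Mouse levels in PEK and SEK were 68.8 and 106 for the squalene synthase Fdft1, 60.2 and 44.1 for the lanosterol demethylase Cyp51, and 63.0 and 110 for the sterol isomerase Ebp. Cyp51 was the lower in SEK, the other genes the higher. In gerbil, the sterol reductase Tm7sf2 was at 21.3 in E21 and 17.2 in E23, and a row described as lanosterol demethylase but without a symbol was at 152 and 147. Another row of that description was at 1.36 and 4.67. Lss, the lanosterol synthase, was at 68.9 and 43.2 in gerbil, and its mouse symbol had a row at 19.1 and 27.3 on chromosome 10 and another at 1.01 and 1.09 on chromosome 9.

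**Figure D3:**
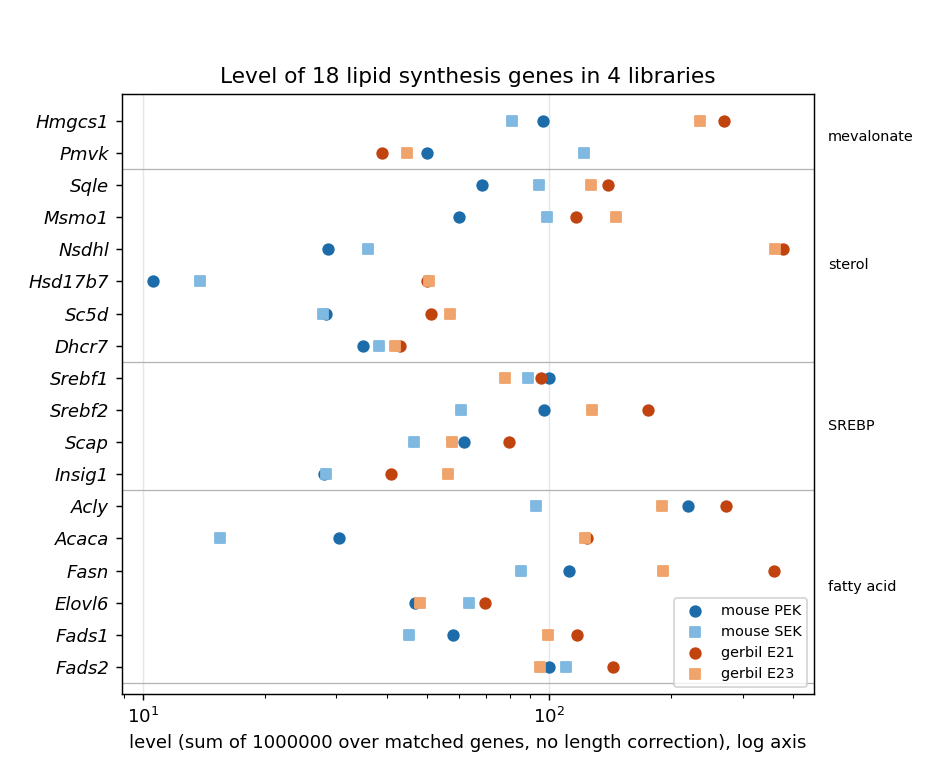
Level of each of the 18 genes (log x axis, scaled to add up to 1000000 per library, no length correction) in the mouse libraries PEK and SEK (blue) and the gerbil libraries E21 and E23 (orange), 1 point per library. Nsdhl is at 28.6 and 35.96 in mouse and at 377 and 361 in gerbil, while the 4 points of Dhcr7 lie between 34.8 and 43.0.

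All 4 SREBP factors and regulators could be compared, and Srebf1 was the 1 called gene. Srebf1, which drives fatty acid genes above all (chr11:60199089-60222581, build GRCm38), was at levels of 99.9 in PEK, 88.8 in SEK, 95.8 in E21 and 77.9 in E23. These levels overlapped between species. After length correction the mouse libraries lay above the gerbil libraries, by 1.34 on the log2 scale (a difference of -1.34 ± 0.18, SE), 2.53-fold. The call held in 7 of 11 alternatives; the difference was -0.76 with no length correction, -1.05 with no minimum level, -0.82 with GC content also removed and -0.12 with libraries neither centred nor corrected, and it was called in none of these.

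Srebf2, the factor of cholesterol genes, was at levels of 97.4 and 60.8 in PEK and SEK and at 175 and 128 in E21 and E23. Its difference was -0.45 ± 0.21 (SE) after length correction and 0.32 without it, a change of direction. Scap was at 61.8, 46.6, 79.6 and 57.6 in PEK, SEK, E21 and E23, with a difference of -0.81 ± 0.22, or -0.30 with centring alone. Insig1, itself a target of these factors, was at 28.0 and 28.3 in mouse and at 40.9 and 56.5 in gerbil, with a difference of 0.42 ± 0.28, or 0.12 with centring alone. Neither Srebf2, Scap nor Insig1 was called. The ratio of Srebf1 to Srebf2 levels within a library was 1.03 in PEK and 1.46 in SEK and 0.547 in E21 and 0.609 in E23. That of Srebf1 to Scap, of 4299 and 4227 bases in mouse, was 1.62 and 1.91 in mouse and 1.20 and 1.35 in gerbil. Both ratios were chosen after the values were seen and are no separate check of the call. Stard4, a carrier of cholesterol between membranes, was read in mouse alone, at 7.62 and 11.8.

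Of the 7 fatty acid genes, 6 could be compared and none was called. Elovl6, which lengthens saturated fatty acids, had the largest difference of them at -1.64 ± 0.57 (SE), 3.11-fold lower in gerbil after length correction. Its levels were 46.8 in PEK, 63.5 in SEK, 69.5 in E21 and 48.2 in E23, which overlapped between species. The gap between the corrected libraries was 0.88, under the 1 needed. It was called higher in mouse with GC content also removed (-1.95), without PEK (-2.19), without E21 (-1.93) and on the values as deposited. Its difference was -0.55 with centring alone and 0.08 with libraries neither centred nor corrected. Its mouse transcript is 6134 bases long.

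Fasn, the fatty acid synthase, was at levels of 112 and 85.5 in PEK and SEK and at 359 and 191 in E21 and E23. Both gerbil libraries were higher in level, yet the difference was -0.83 ± 0.48 (SE) after correction for its length and 0.77 without it. Acaca, the carboxylase that commits acetyl-CoA to fatty acids, was at 30.4 and 15.5 in mouse and at 124 and 123 in gerbil. Its difference was 0.24 ± 0.05 after length correction and 1.82 without, when it was called. The transcripts of Fasn and Acaca are of 10050 and 9513 bases in mouse, and the ratio of their levels was 3.70 and 5.51 in PEK and SEK and 2.89 and 1.55 in E21 and E23. Without E21, Fasn was called higher in mouse (-1.26).

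Acly, which makes cytosolic acetyl-CoA from citrate, was at levels of 220 in PEK and 93.2 in SEK, and was at 273 and 190 in E21 and E23. Its difference was -0.62 ± 0.44 (SE), and 0.03 with centring alone. Fads1 and Fads2, the desaturases of polyunsaturated fatty acids, were not called either. Fads1 was at 58.1 and 45.3 in mouse and at 117 and 99.5 in gerbil (difference 0.24 ± 0.06, or 0.43 with centring alone), and Fads2 at 100.3 and 110.1 in mouse and at 143 and 95.4 in gerbil (-0.36 ± 0.27). The ratio of Fads2 to Fads1 levels was 1.73 in PEK and 2.43 in SEK and 1.22 in E21 and 0.958 in E23. Scd2, which makes monounsaturated fatty acids, was read in mouse alone, where its levels of 389 and 225 were above every compared member in the same library.

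By role, the median difference was 0.17 over the 2 mevalonate genes, 0.44 over the 6 sterol genes, -0.63 over the 4 SREBP genes and -0.49 over the 6 fatty acid genes. With centring alone the same medians were -0.33, 0.20, -0.09 and 0.23, so those of the mevalonate and fatty acid genes changed sign. Summed levels weight the abundant enzymes and carry the shift toward gerbil given above. The sterol genes summed to 231 and 309 in PEK and SEK and to 777 and 784 in E21 and E23, 2.89 times as much in gerbil. Without Nsdhl the other 5 summed to 202 and 273 in mouse and to 400.5 and 423 in gerbil, 1.73 times as much. The fatty acid genes summed to 568, 413, 1086 and 747 in PEK, SEK, E21 and E23 (1.87 times), the mevalonate genes to 147, 203, 309 and 280 (1.69 times), and the SREBP genes to 287, 224, 392 and 320 (1.39 times). The sterol share of the summed level of the 18 genes was 18.7% and 26.9% in mouse and 30.3% and 36.8% in gerbil. With Nsdhl left out of both sums it was 16.8% and 24.5% in mouse and 18.3% and 23.9% in gerbil, and the species overlapped.

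Between the libraries of a species, few of the 18 genes moved by 2-fold. In mouse, Elovl6 was 1.04 higher in SEK than in PEK on the corrected log2 scale, the 1 gene of 18 past 2-fold (7.44% of all kept genes), and none was 2-fold higher in PEK (8.42%). Pmvk and Hsd17b7 lay just under, at 0.99 and 0.93. With centring alone Elovl6 was at 0.62, and the 1 gene past 2-fold toward SEK was Pmvk, at 1.46. Acly was then past 2-fold toward PEK, at -1.04. SEK was the higher library for 14 of 18 genes, where it was for 48.1% of all kept genes, and for 6 of 6 sterol genes, whose median was 0.53. With centring alone it was the higher for 11 of 18 and again for 6 of 6 sterol genes (49.1% of all kept genes). Acly went the other way, at -0.75 after length correction. Between the same libraries, summed muscle markers were 110 and 349 and knot markers 3680 and 2375 in PEK and SEK. Dental epithelium markers summed to 5315 and 7290, and endothelial markers to 5.31 and 13.2. Mesenchyme markers summed to 860 and 802 and did not move together. Col1a1 was at 48.3 and 204, Lum at 13.2 and 47.9 and Msx1 at 270 and 283. Twist1 was at 183 and 84.6, Vim at 303 and 172, Prrx1 at 28.3 and 4.06 and Pax9 at 14.4 and 6.4. Of the blood and immune markers, Hbb-bt was at 94.1 and 205, Tyrobp at 3.27 and 18.3 and Cd68 at 17.0 and 15.5. The part of these cells in this pattern was not tested.

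In gerbil, no gene differed by 2-fold between E21 and E23 in either direction (6.03% of all kept genes were higher in E23 and 3.68% higher in E21). E23 was the lower library for 11 of 18 genes, where it was for 51.6% of all kept genes. It was the lower for 5 of 6 fatty acid genes, with Fasn at -0.85, Fads2 at -0.50 and Acly at -0.47, and Acaca at 0.03 as the exception. Insig1 was the higher in E23, by 0.56, while Srebf2 and Scap were at -0.41 and -0.43. Endothelial markers summed to 1.13 in E21 and 103 in E23 and mesenchyme markers to 979 and 1690, and their part was not tested. The mesenchyme markers did not move together. From E21 to E23, Lum went from 78.8 to 360, Col1a1 from 257 to 694 and Prrx1 from 15.2 to 25.4. Vim went from 529 to 543, while Pax9 went from 30.7 to 13.7, Msx1 from 37.6 to 32.3 and Twist1 from 31.6 to 22.6. Each library is a single sample here, so none of these differences has a replicate check.

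**Figure D4:**
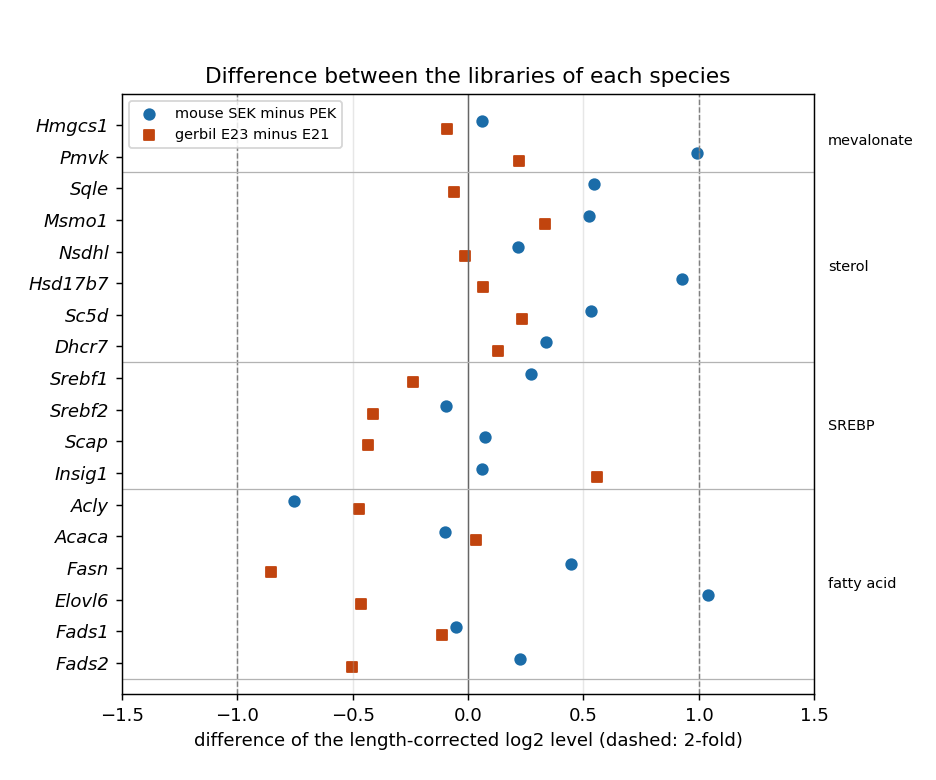
Difference of the length-corrected log2 level between the libraries of a species for the 18 genes (x axis), SEK minus PEK in mouse (blue circles) and E23 minus E21 in gerbil (orange squares), with 2-fold as dashed lines. All 6 sterol genes lie right of zero in mouse, 5 of 6 fatty acid genes lie left of zero in gerbil, and Elovl6 in mouse, at 1.04, is past a dashed line.

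A list of 48 other genes of lipid synthesis, uptake, efflux and oxidation gives the surroundings of the set. Of these, 40 could be compared: 5 were called higher in gerbil, 5 higher in mouse and 30 in neither direction, with a median of -0.12. Over all kept genes 13.3% were called higher in gerbil and 14.7% higher in mouse. With centring alone, 4 of the 40 were called higher in gerbil and 11 higher in mouse, and the median was -0.41. Among those called higher in gerbil were the elongase Elovl5 (levels of 38.5 and 39.3 in PEK and SEK against 131 and 126 in E21 and E23, difference 1.26 ± 0.06, SE), the chain elongation reductase Hsd17b12 (1.39 ± 0.18), the phosphatidate phosphatase Lpin1 (1.47 ± 0.26) and the oxysterol receptor gene Nr1h3 (1.81 ± 0.37). With centring alone Elovl5 (1.06), Hsd17b12 (0.44) and Nr1h3 (1.08) were not called.

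Of the 5 genes called higher in mouse, the sterol exporter Abcg1 was at levels of 22.1 and 13.8 in PEK and SEK and at 6.63 and 6.12 in E21 and E23, a difference of -3.16 ± 0.03 (SE). The lipoprotein receptor Scarb1 was at 62.0 and 71.8 against 18.2 and 27.2 (-1.77 ± 0.30), and Dgat2, which makes triglyceride, at 31.3 and 54.8 against 7.39 and 9.43 (-2.16 ± 0.39). The glucose-responsive factor gene Mlxipl (-2.89 ± 0.80) and the mitochondrial fatty acid synthesis gene Mcat (-1.13 ± 0.05) were the others. With centring alone Abcg1, whose mouse transcript is 6830 bases long, was at -1.96 ± 0.23. Scarb1 was then at -2.17, Dgat2 at -2.81, Mlxipl at -2.70 and Mcat at -2.06, and all 5 were still called.

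Among classic targets of the SREBP factors in that list, Scd1, a desaturase, was at levels of 4.95 and 3.94 in PEK and SEK and at 39.0 and 23.9 in E21 and E23, with a difference of 1.10 ± 0.33 (SE) after correction, not called, and 1.91 with centring alone, called. Acss2, which makes acetyl-CoA from acetate, differed by 0.37 ± 0.11 and was not called.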

How the data were processed

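Per the labels' protocols, RNA came from laser-microdissected enamel knot region, 2 samples per species. The authors deposited mouse values as FPKM per locus (27632 loci) and gerbil values as TPM per gene (25745 genes), in tables normalized separately. Another 4 per-sample columns of the gerbil table were not used here, since 1 measure was kept for each library. Columns show the species and no sample number. Cutadapt (2.8), STAR (2.7.1a) and RSEM (1.3.1) and, for mouse, GRCm38 and mm10 are named per the submitters' processing notes, with no step tied to a table. For the gerbil build, nothing was given in the sources used here.

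Symbols occurring once in each table were matched, ignoring case. FPKM and TPM as deposited were scaled to add up to 1000000 over matched genes. Genes needed a mean level of 1 or more and a mouse transcript length (exon union, GENCODE M21). Then log2(level + 1) was taken, which understates the change of low genes. The running median of each library's deviation from the gene mean, in 40 bins along length, was subtracted. The difference is the gerbil mean minus the mouse mean, with its SE from 2 libraries per species. A call needs a 2-fold gap between all libraries of the species and stands in place of a test. Alternatives covered scaling, length, GC, the minimum level, the pseudocount, the gap and single libraries.

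Values in every library are given by rule for called members, the most abundant and the most different uncalled member of each role, and 8 fixed genes, and further members were described for completeness; some genes of the wider pathway list are not reported here. The members, lists and rules were chosen with earlier results of these data known. Promoter windows are from RefSeq, build GRCm38.p6. Calculations used Python 3.11.15, numpy 2.4.6, pandas 2.3.3 and scipy 1.17.1, and were tested on simulated data.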

Additional observations from a re-analysis of the deposited data

How the results depend on the processing

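Over single genes, 198 differences were recomputed: 115 stayed on their side of the call and, if uncalled, within their SE, 64 moved by more, 15 gained a call, 4 lost one and 0 turned a call around. The number called higher in gerbil (1) was 3 with no length correction, 4 with libraries neither centred nor corrected (an alternative chosen after seeing the data), 2 at a gap of 1.5-fold and 8 with any gap; leaving out 1 library gave 1 to 2, the 2 without SEK, where Msmo1 joined at 1.20. The number called higher in mouse (1) was 0 with no length correction, 0 with no minimum level, 0 with neither centring nor correction, 6 on the values as deposited, 2 at a gap of 1.5-fold and 9 with any gap. Leaving out 1 library gave 1 to 3, with Elovl6 joining without PEK (2) and Elovl6 and Fasn without E21 (3). With GC also removed the 1 called gene was Elovl6, not Srebf1.

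The median difference was 0.12 with no length correction, -1.05 as deposited (all genes -1.09), -0.084 with no minimum level, 0.012 with GC also removed and 0.75 with neither centring nor correction (all genes 0.62); leaving out 1 library gave -0.34 to -0.028, the latter without SEK. As deposited, the gerbil to mouse ratio of summed levels was 0.452 for mevalonate, 0.774 for sterol, 0.380 for SREBP and 0.514 for fatty acid genes and 0.535 for all 18; leaving out 1 library gave 1.45 to 2.01, 2.52 to 3.38, 1.24 to 1.59, 1.52 to 2.22 and 1.79 to 2.15. Between libraries, 3 genes were higher in SEK, 1 in PEK (Acly) and 1 in E21 (Fasn) at 1.5-fold, and 1 (Acly) in PEK with no length correction.

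The planned use of gerbil RPKM and read counts in place of TPM was not run, because 1 measure was kept for each gerbil library. The differences rest on how scale and length are treated across separately made tables, on 2 libraries per species, and on mouse values of unknown depth. No paired analysis was possible because the columns carry no replicate number and the result comes from no test.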
